A study of Rattus norvegicus with 3 samples.

Results

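The MHC class II presentation genes are 8 genes that build, load and switch on the cell surface molecule with which antigen-presenting cells show peptides to CD4 T cells. They are listed by what they do, by a rule that uses no measured value though earlier results of these data were known, and they are 8 of the 20896 gene names found in any of the 3 tables. The members are Cd74 (ENSRNOG00000018735), RT1-Da (ENSRNOG00000032844), RT1-Db1 (ENSRNOG00000033215), RT1-Ba (ENSRNOG00000000451), RT1-Bb (ENSRNOG00000032708), RT1-DMa (ENSRNOG00000047864), RT1-DMb (ENSRNOG00000049491) and Ciita (ENSRNOG00000002659). The table of the sham library listed 7 of them, without RT1-DMa, and the tables of the other libraries listed 8.

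An MHC class II molecule is a pair of chains, alpha and beta, and the rat makes it as RT1-D (the counterpart of human HLA-DR) and RT1-B (the counterpart of HLA-DQ). The new pair is held by the invariant chain CD74 until it reaches an acidic compartment, where RT1-DM exchanges the last piece of CD74 for a peptide. CIITA is the coactivator that turns these genes on together, and B cells, dendritic cells and macrophages are the classic carriers, all of which are found in the marrow spaces under joint cartilage.

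The study profiled single cells of the rat jaw joint, from mandibular condyles with their cartilage and the bone beneath it, after a change of bite that loads the joint and after delivery of a microRNA gene. SD rats (WT, kept in an SPF environment) made 3 libraries of 16 condyles from 8 rats each, pooled before loading on 10x Genomics 3′ v3.1 chips. All rats received an adeno-associated virus (AAV) injected into the temporomandibular joint. The sham rats received Vector AAV without the bite change, the UAC rats received Vector AAV and unilateral anterior crossbite (UAC) for 8 weeks, and the rats of the UAC + miR-330 library received miR-330 AAV with UAC. The ages of these rats and the promoter in the virus were not given in the labels. With 1 library per condition there was no replicate check and no test, so each difference below compares libraries of pooled rats.

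Levels were counted in UMIs, the molecular tags that mark each captured RNA once, and are scaled to counts per 1000000 tags of the same clusters, written CPM. The sham library held 77668015 UMIs, the UAC library 92629658 and the UAC + miR-330 library 97255383. Ranges in brackets are exact 95% Poisson intervals for levels and exact binomial intervals for shares, and they cover counting error only. A member was called higher or lower where its CPM differed by at least 1.5-fold between libraries that together held at least 100 UMIs of it. In such sums, fewer cells of a type and less RNA per cell cannot be told apart. Unscaled means, below, are cluster means used as deposited, without the step to CPM. They keep a fixed total per library, so they shift every gene of a comparison by the same amount.

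The deposited tables divide the cells of each library into clusters, groups of cells with like RNA, of which the sham library had 15, the UAC library 18 and the UAC + miR-330 library 19. A mature B-like cluster was present in each library (cluster 1 in sham and cluster 2 in the others), with 11 of 14 listed B-lineage markers enriched and more Ms4a1 than its library. The sham one differed from the others in having 5 T and NK and 2 plasmacytoid dendritic markers enriched, where the others had 0 of either. The 11 listed T and NK markers summed to 138 CPM in it, 36.7 CPM in UAC and 36.5 CPM in UAC + miR-330, led by Cd3g at 36.3 CPM in sham and 11.5 CPM in UAC and by Lck at 12.2 CPM in UAC + miR-330, with Ncr1 at 0 in UAC and Klrd1 in UAC + miR-330. Such cells could not be taken out of a cluster mean, so every comparison of the mature B-like cluster with sham carries this difference, and its part in the results was not tested. A macrophage-marker cluster was also present in each (cluster 15 in sham, 9 in UAC, 10 in UAC + miR-330), with 13 of 13, 13 of 14 and 13 of 14 listed macrophage markers enriched. Dendritic markers were enriched there too, 6, 4 and 6 of them, with 3, 2 and 2 plasmacytoid dendritic ones, so its levels may hold RNA of such cells. Of the Siglech UMIs it held 61 of 128 in sham, 31 of 394 in UAC and 70 of 331 in UAC + miR-330. These clusters are compared by number because the sham one also had 7 mast cell and basophil markers enriched, whose list summed to 329 CPM there against 3.75 and 8.02 CPM in the others. The other B-like clusters, most of which had early B markers enriched, numbered 8 in sham, 7 in UAC and 8 in UAC + miR-330.

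The libraries also differed in make-up. A cluster with B-lineage and plasmacytoid dendritic markers both enriched, and with Cxcr5 and Fcer2 among its 10 leading genes, appeared in the UAC library (cluster 14, 2.51% of UMIs) and in the UAC + miR-330 library (cluster 8, 3.18%), and no sham cluster met the same rule. Siglech was among the leading genes in UAC alone. The cluster is called mixed here, since neither name covered both kinds of marker, and naming by mean marker level put it with plasmacytoid dendritic cells in both libraries. From cluster means doublets could not be told from a cell type. In it 5 of 14 listed B-lineage markers were enriched in either library, with 6 and 3 of 7 plasmacytoid dendritic markers and 3 and 2 of 12 dendritic markers. Macrophage markers were near 0 in it, at a sum of 21.9 CPM in UAC and 12.9 CPM in UAC + miR-330. Dendritic markers did not move alike. Xcr1 and Batf3, which mark conventional dendritic cells, were at 0, but Xcr1 had 3 and 4 UMIs in these whole libraries, too few to tell. Flt3 stood at 246 CPM in UAC and 160 CPM in UAC + miR-330, against 19.9 and 21.6 CPM over all clusters. Clec10a stood at 0 and 0.646 CPM, against 6.07 and 6.19 CPM. With 1 library per group, whether a cluster stands for a cell type or for its library cannot be told apart. A T and NK cluster, with 11 of 11 listed markers enriched, was likewise present in UAC (cluster 17, 2.36% of UMIs) and in UAC + miR-330 (cluster 19, 2.39%), while no sham cluster had more than 6 enriched. The cells behind each cluster were grouped with these genes among the others, so levels by cluster are a description.

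The labels name chondrocytes and osteoclasts as the cells. Clusters named B-like held 57.4% of the UMIs in sham, 47.9% in UAC and 49.4% in UAC + miR-330. These shares leave out the mixed clusters and 3 clusters with enough B markers at level but more markers of another list enriched. They were cluster 13 of sham (14.6% of UMIs), cluster 11 of UAC (14.9%) and cluster 11 of UAC + miR-330 (15.8%). The cluster with the most chondrocyte markers held 11.6%, 6.46% and 6.05%. That cluster had 11 of 12 chondrocyte markers and 12 of 12 osteogenic and fibroblast markers enriched in each library, and naming by mean marker level made it osteogenic and fibroblast, so these kinds of cell were not separated. When clusters were named by their mean marker level instead, the B-like share was 40.9% in sham, 47.9% in UAC and 45.6% in UAC + miR-330, so the order of the libraries turned. Cluster 3 of sham (erythroid by that naming) and cluster 14 of UAC + miR-330 (endothelial) made the change, and their names are uncertain. Of the osteoclast markers, Acp5 reached 149 CPM in sham, 112 CPM in UAC and 94.5 CPM in UAC + miR-330, and of its 11610 UMIs in sham 2350 lay in the mature B-like cluster and 7397 in the other B-like clusters. Ctsk stood at 23.9, 19.5 and 11.6 CPM, while Ocstamp had 3, 2 and 1 UMIs and Calcr 4, 1 and 2 UMIs. Most MHC class II RNA came from the B-like, mixed and macrophage-marker clusters, as the shares given later show by value.

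Across whole libraries, the summed members stood at 1832 CPM in sham, 2321 CPM in UAC and 2000.3 CPM in UAC + miR-330. Without the mixed cluster the UAC sum was 1745 CPM and the UAC + miR-330 sum 1410.0 CPM. The UAC library thus had the highest value with that cluster, though unscaled means turn its difference from UAC + miR-330, and it had a lower value than sham without it, by less than the log2 of 0.20 that unscaled means would add. For genes with a high level in the mixed cluster, here and below, leaving it out can only lower the UAC libraries. It does not show where a difference from sham comes from. By cluster, the mixed cluster ranked first where it existed, at 24712 CPM in UAC and 19968 CPM in UAC + miR-330. The mature B-like cluster held 12176 CPM [12090.1 to 12263] in sham, 10396 CPM [10319 to 10473] in UAC and 7796 CPM [7732 to 7860.4] in UAC + miR-330. The macrophage-marker cluster held 10121 CPM [10014 to 10229] in sham, 8826 CPM [8749.7 to 8902] in UAC and 7587 CPM [7517 to 7657] in UAC + miR-330. The mature B-like cluster ranked above the macrophage-marker one in all 3 libraries by the sum, with intervals apart, and below it in all 3 when Cd74 was left out of the sum.

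The next cluster in each order was the one with the most plasma cell markers, at 1384 CPM in sham, 1618 CPM in UAC and 1958 CPM in UAC + miR-330. It had 5, 7 and 6 macrophage markers enriched beside 5, 6 and 6 plasma cell markers, with 7, 8 and 3 mast cell and basophil and 7, 3 and 5 erythroid markers, and was given no cell type. Mast cell genes were among its leading genes in UAC and naming by mean marker level put it with mast cells in sham and UAC, so it is not the same mixture in each library and no trend is read from it. Its macrophage markers summed to 724 CPM in sham, 506 CPM in UAC and 885 CPM in UAC + miR-330, led by C1qa at 254, 159 and 299 CPM, with Marco at 0 in UAC, and their part in its level was not tested. Below it came other B-like clusters, which ran from 213 to 886 CPM in sham, from 219.7 to 733 CPM in UAC and from 135 to 652 CPM in UAC + miR-330. The cluster with the most chondrocyte markers was near the bottom, at 94.6 CPM in sham, 136 CPM in UAC and 112 CPM in UAC + miR-330. Free RNA in droplets was not subtracted, so levels of this size may hold RNA from other cells.

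**Figure D1:**
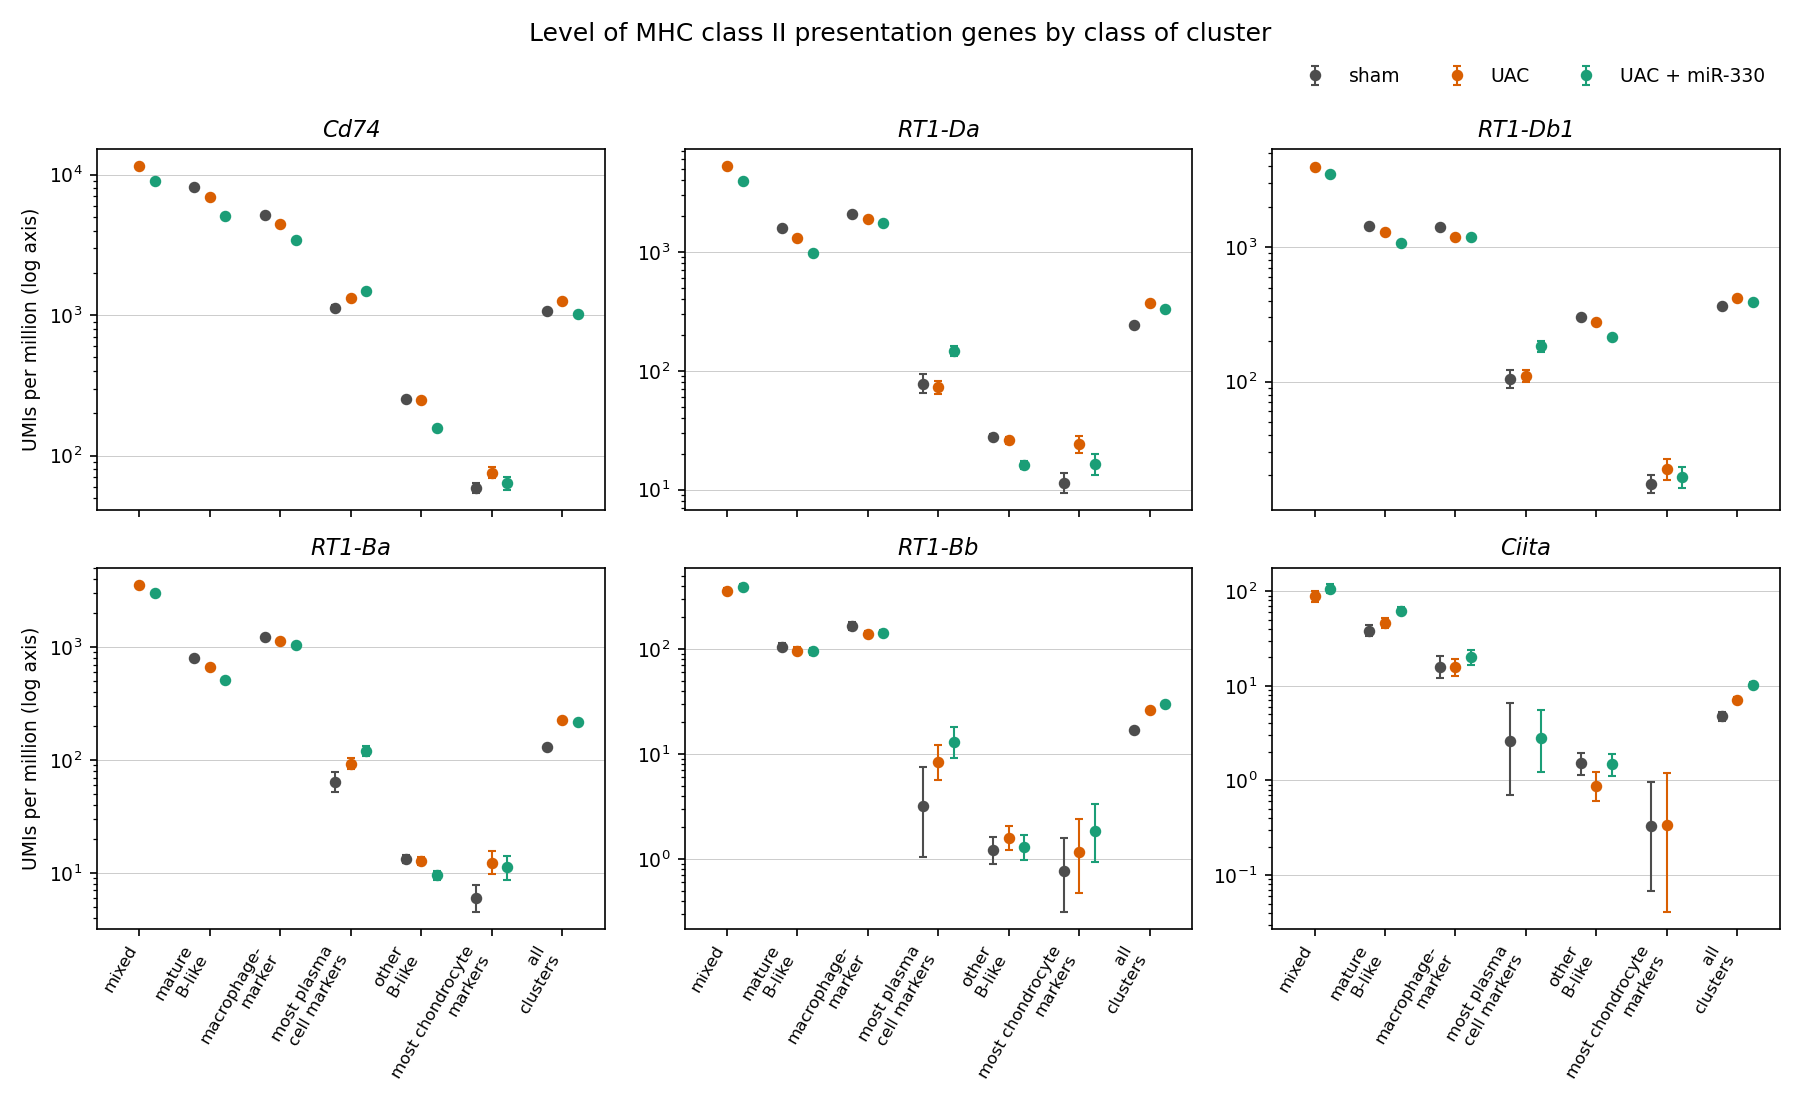
Level of each of the 6 members with at least 100 UMIs in every library (vertical log axes, CPM) in classes of clusters and in all clusters, with 1 point per library and bars for exact 95% Poisson intervals, which cover counting error only. A class with 0 UMIs of a gene has no point, sham has no mixed cluster, and Cd74 in the mature B-like cluster lies at 8185 CPM in sham, 6969 CPM in UAC and 5079 CPM in UAC + miR-330, while Ciita there lies at 38.3, 46.2 and 62.4 CPM.

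Cd74 encodes the invariant chain, the chaperone that guides new MHC class II pairs to the loading compartment. Over all clusters it stood at 1071 CPM [1064 to 1079] in sham, 1269.9 CPM [1263 to 1277] in UAC and 1021 CPM [1015 to 1027] in UAC + miR-330. The UAC library was the highest, and without the mixed cluster 1007 CPM were left in UAC and 759.7 CPM in UAC + miR-330. Within the mature B-like cluster Cd74 stepped down over the libraries, from 8185 CPM in sham to 6969 CPM in UAC and 5079 CPM in UAC + miR-330. The macrophage-marker cluster had the same order, at 5194 CPM in sham, 4467 CPM in UAC and 3435 CPM in UAC + miR-330. In the mixed cluster Cd74 was at 11489 CPM in UAC and 8976 CPM in UAC + miR-330. The UAC + miR-330 library thus had the lowest value in each of these clusters. Cd74 in the cluster with the most plasma cell markers was at 1132 CPM in sham, 1334 CPM in UAC and 1493 CPM in UAC + miR-330. Cd74 in the other B-like clusters was at 253 CPM in sham, 248 CPM in UAC and 157 CPM in UAC + miR-330, and in the cluster with the most chondrocyte markers at 58.8, 75.8 and 63.5 CPM.

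RT1-Da encodes the alpha chain of RT1-D. It stood at 243 CPM [239 to 246] in sham, 370.0 CPM [366 to 374] in UAC and 329 CPM [326 to 333] in UAC + miR-330 over all clusters. Sham was the lowest. Without the mixed cluster, which is taken from the UAC libraries alone, the values were 245 CPM in UAC and 210.0 CPM in UAC + miR-330, around the sham level. RT1-Da in the mature B-like cluster was at 1588 CPM in sham, 1298 CPM in UAC and 972 CPM in UAC + miR-330. The macrophage-marker cluster held 2093 CPM in sham, 1886 CPM in UAC and 1738 CPM in UAC + miR-330, more in each library than the mature B-like cluster, the reverse of Cd74. The mixed cluster held 5234 CPM in UAC and 3953 CPM in UAC + miR-330.

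RT1-Db1 encodes the beta chain that pairs with RT1-Da. Its values over all clusters were 364 CPM in sham, 422 CPM in UAC and 394 CPM in UAC + miR-330, and without the mixed cluster 330.4 CPM in UAC and 290.4 CPM in UAC + miR-330. RT1-Db1 in the mature B-like cluster was at 1449 CPM in sham, 1311 CPM in UAC and 1074 CPM in UAC + miR-330. The macrophage-marker cluster held 1419, 1184 and 1192 CPM in the same order of libraries. The mixed cluster held 3992 CPM in UAC and 3535 CPM in UAC + miR-330. RT1-Db2 is a close paralog whose reads the counting may have split with RT1-Db1, so values of RT1-Db1 are uncertain by that amount, and RT1-Db2 stood at 24.2 CPM in sham, 31.03 CPM in UAC and 22.7 CPM in UAC + miR-330.

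RT1-Ba, the alpha chain of RT1-B, stood at 132 CPM [129 to 134] in sham, 225 CPM [222 to 228] in UAC and 216 CPM [213 to 219] in UAC + miR-330. Both UAC libraries lay above sham over all clusters, while without the mixed cluster they stood at 139 CPM and 124 CPM, on either side of it. The mature B-like cluster held 811 CPM in sham, 675 CPM in UAC and 513 CPM in UAC + miR-330. The macrophage-marker cluster held 1233 CPM in sham, 1134 CPM in UAC and 1059 CPM in UAC + miR-330. RT1-Ba in the mixed cluster was at 3548 CPM in UAC and 3004 CPM in UAC + miR-330, above every other cluster of those libraries.

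RT1-Bb, the beta chain of RT1-B, stood at 16.9 CPM in sham, 26.4 CPM in UAC and 30.2 CPM in UAC + miR-330, and without the mixed cluster at 17.9 CPM in UAC and 18.3 CPM in UAC + miR-330. Its values in the mature B-like cluster were 106 CPM [97.6 to 114] in sham, 96.5 CPM [89.2 to 104] in UAC and 95.2 CPM [88.2 to 103] in UAC + miR-330, with overlapping intervals. The macrophage-marker cluster held 165, 139 and 142 CPM of RT1-Bb in sham, UAC and UAC + miR-330, and the mixed cluster held 359 CPM in UAC and 392 CPM in UAC + miR-330.

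RT1-DMa and RT1-DMb encode the chaperone that loads peptides and edits them. RT1-DMa had 3 UMIs in the whole UAC library and 4 in UAC + miR-330. RT1-DMb had 4 UMIs in sham, 7 in UAC and 7 in UAC + miR-330. Neither reached the 100 UMIs needed for a call in any comparison, so nothing is said of differences in them. Whether the annotation of their 3′ ends, the depth or the cells gave such low counts was not tested. Of these few UMIs, the macrophage-marker cluster held 2 of the 4, 2 of the 7 and 5 of the 7 of RT1-DMb.

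Ciita, the coactivator of the other members, stood at 4.76 CPM [4.29 to 5.27] in sham, 7.08 CPM [6.55 to 7.65] in UAC and 10.3 CPM [9.64 to 10.9] in UAC + miR-330. Without the mixed cluster it was at 4.99 CPM in UAC and 7.12 CPM in UAC + miR-330, so that the UAC + miR-330 library remained the highest. In the mature B-like cluster Ciita stepped up, from 38.3 CPM [33.6 to 43.4] in sham to 46.2 CPM [41.2 to 51.6] in UAC and 62.4 CPM [56.8 to 68.4] in UAC + miR-330. The mixed cluster held 88.2 CPM [76.6 to 101] in UAC and 106 CPM [95.2 to 118] in UAC + miR-330. Ciita in the macrophage-marker cluster was at 16.0 CPM in sham, 15.7 CPM in UAC and 20.04 CPM in UAC + miR-330, with overlapping intervals. Other B-like clusters held 1.51, 0.877 and 1.48 CPM. The order of libraries for Ciita in the mature B-like cluster was the opposite of that for Cd74, RT1-Da, RT1-Db1 and RT1-Ba, which its product is known to activate, though on unscaled means RT1-Db1 lost that order, at a log2 ratio of 0.05 for UAC against sham. UAC + miR-330 against sham in that cluster gave a log2 ratio of 0.71 for Ciita and −0.69 for Cd74, beside a median of 0.10 over all genes. RT1-Da had −0.71 and RT1-Ba −0.66, so that 1 of 6 members was higher and 3 were lower, against 14.5% of genes higher and 8.48% lower. On unscaled means Ciita had 1.14, while Cd74 at −0.26, RT1-Da at −0.28 and RT1-Ba at −0.23 no longer passed the fold. That pair of libraries was set side by side after the values had been seen. In other sums its calls differed, with shares of all genes not counted. Over all clusters 3 of 6 members were higher and 0 lower, at a median of 0.58 beside 0.13 for all genes. Without the mixed cluster 0 of 6 were called, and in the macrophage-marker cluster 0 were higher and 1 lower.

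The comparison of UAC with sham asks what the bite change goes with. Over all clusters 3 of the 6 members past the minimum count were higher in UAC and 0 were lower, against 6.17% of all 13167 genes that were higher and 5.39% that were lower by the same rule. The called members were RT1-Ba at a log2 ratio of 0.77 [0.74 to 0.81], RT1-Bb at 0.64 [0.54 to 0.74] and RT1-Da at 0.61 [0.58 to 0.63], where the median of all genes was −0.02. Ciita at 0.57, Cd74 at 0.25 and RT1-Db1 at 0.21 did not reach the fold. RT1-Da lost its call, at 0.58, when mitochondrial, ribosomal, haemoglobin and immunoglobulin genes were left out of the scaling, and Ciita gained one, at 0.77, on unscaled means. Without the mixed cluster 0 members were called, against 5.73% of all genes that were higher and 5.16% that were lower, the largest of the 3 ratios was 0.08, and the ratio of the summed members changed from 0.34 to −0.07. This takes the cluster with the highest level from UAC alone, while any like cells of sham stay in its sum, so it could only lower UAC and does not show where the difference comes from.

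Within all B-like clusters, 0 of 6 members were called higher and 0 lower in UAC, against 2.3% and 1.88% of all genes. The summed members had a log2 ratio of −0.11, which turned to 0.52 when the mixed cluster was added. On unscaled means it was 0.09, but the median of all genes moved with it, from 0.03 to 0.22, and stayed above the sum. With that cluster 4 members were higher and 0 lower, against 4.15% and 1.87% of genes in the same clusters, but the addition was made to UAC alone and could only raise it. In the mature B-like cluster alone 0 members were called, against 2.06% of genes higher and 2.47% lower, and ratios ran from −0.29 for RT1-Da to 0.27 for Ciita, with RT1-Db1 at −0.14 and RT1-Bb at −0.13 turning positive on unscaled means. In the macrophage-marker clusters 0 members were called, against 3.09% higher and 6.5% lower, and ratios ran from −0.26 for RT1-Db1 to −0.03 for Ciita, with RT1-Da, RT1-Ba and Ciita turning positive on unscaled means. The other B-like clusters had 0 of 5 members called, against 2.3% and 1.57% of genes. In the cluster with the most chondrocyte markers 2 of 4 members were higher in UAC and 0 lower. The median was 0.71 beside 0.12 for all genes there, and the share of genes called was not counted. These 2 were RT1-Da, at 11.4 CPM in sham and 24.1 CPM in UAC, and RT1-Ba, at 5.99 and 12.4 CPM. Levels of this size may hold RNA from other cells, as said above. When the mixed cluster was joined to the macrophage-marker one, although few of its markers are of that kind, 1 member was called higher and 0 lower, against 10.7% and 7.35% of genes. That member was Ciita, at 16.0 CPM in sham and 36.3 CPM in UAC and a log2 ratio of 1.18 [0.76 to 1.63], and without the mixed cluster, which joined UAC alone, its ratio was −0.03.

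The comparison of UAC + miR-330 with UAC asks what the delivered microRNA gene goes with in loaded joints. Over all clusters 0 of 6 members were called higher and 0 lower, against 10.5% and 2.97% of all 13435 genes, and the median of all genes was itself shifted to 0.13. Cd74 had a log2 ratio of −0.31 [−0.33 to −0.30], RT1-Bb 0.19 and Ciita 0.54 [0.39 to 0.68]. RT1-Da at −0.17, RT1-Db1 at −0.10 and RT1-Ba at −0.06 turned positive on unscaled means, as did the summed members from −0.21 to 0.02. Unscaled means raise every gene of this comparison by 0.24, the median included, so that read against that median Cd74 lay lower and Ciita higher either way.

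In the B-like clusters together 0 of 6 members were called in either direction, against 7.62% of genes higher and 3.93% lower, and the sum had a log2 ratio of −0.43. The other B-like clusters, counted alone after the values had been seen, had 2 of 5 members lower and 0 higher, against 3.82% and 7.48% of genes. They were Cd74, at a log2 ratio of −0.66 [−0.70 to −0.61], and RT1-Da, at −0.68 [−0.83 to −0.54], and on unscaled means both missed the fold, at −0.42 and −0.44. In the mature B-like cluster the ratios were −0.46 for Cd74, −0.42 for RT1-Da, −0.39 for RT1-Ba and −0.29 for RT1-Db1, where the median of all genes was 0.07 and RT1-Bb at −0.02 turned positive on unscaled means. Ciita had 0.43 [0.22 to 0.65]. None of these passed the fold, against 7.52% of genes higher and 3.26% lower, but Ciita did on unscaled means, at 0.67. The mixed cluster also had 0 of 6 members called, against 11.4% and 5.98%. In the macrophage-marker clusters 0 members were called, against 12.5% and 2.51%, and Cd74 had −0.38 beside a median of 0.17 over all genes, while the sum at −0.22 turned to 0.02 on unscaled means. The macrophage-marker and mixed clusters joined gave 0 called members, against 13.5% and 2.68%, and a ratio of −0.18 for the sum, which turned to 0.06 on unscaled means beside a median of 0.16 as scaled.

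Markers of the clusters moved between libraries beside these values. In the mature B-like cluster the B-lineage list, with none of 14 listed markers at 0, summed to 16389 CPM in sham, 17631 CPM in UAC and 20745 CPM in UAC + miR-330, with Ebf1 the most abundant at 8433, 9899 and 12124 CPM. In the macrophage-marker cluster the macrophage list summed to 3280.0 CPM in sham, 2107 CPM in UAC and 1976 CPM in UAC + miR-330. Its most abundant gene was C1qa in sham, Cd14 in UAC (552 CPM) and Cd68 in UAC + miR-330, and Marco was at 0 in both UAC libraries. C1qa had 655, 170 and 192 CPM and Cd68 531, 479 and 419.9 CPM, while Csf1r had 292, 296 and 320.05 CPM and Adgre1 50.5, 57.8 and 59.8 CPM, so the markers did not move alike. Neutrophil markers in the same cluster summed to 6424, 6249 and 4159 CPM, led by S100a8, with 1 of 14 enriched in each library. Their part in the results was not tested.

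The UMIs of the summed members were spread over clusters as follows. In sham the B-like clusters held 69.6% [69.4 to 69.9] of them, of which the mature B-like cluster had 53.4% of the total with 8.04% of all UMIs. In UAC the B-like clusters held 42.6% [42.4 to 42.8] and the mixed cluster 26.7% [26.5 to 26.9]. In UAC + miR-330 the B-like clusters held 37.7% [37.52 to 37.96] and the mixed cluster 31.8% [31.5 to 32.0], although the latter had 3.18% of all UMIs. The macrophage-marker cluster kept a like share, 24.1% in sham, 24.1% in UAC and 23.3% in UAC + miR-330. It held 4.36%, 6.33% and 6.16% of all UMIs in the same order, at levels of 10121, 8826 and 7587 CPM. In parts of the library level, the mixed cluster gave 620.0 of the 2321 CPM in UAC and 635 of the 2000.3 CPM in UAC + miR-330. The mature B-like cluster gave 979 CPM in sham, 758 CPM in UAC and 587 CPM in UAC + miR-330. For Ciita the mixed cluster held 31.3% of UMIs in UAC and 32.9% in UAC + miR-330.

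**Figure D2:**
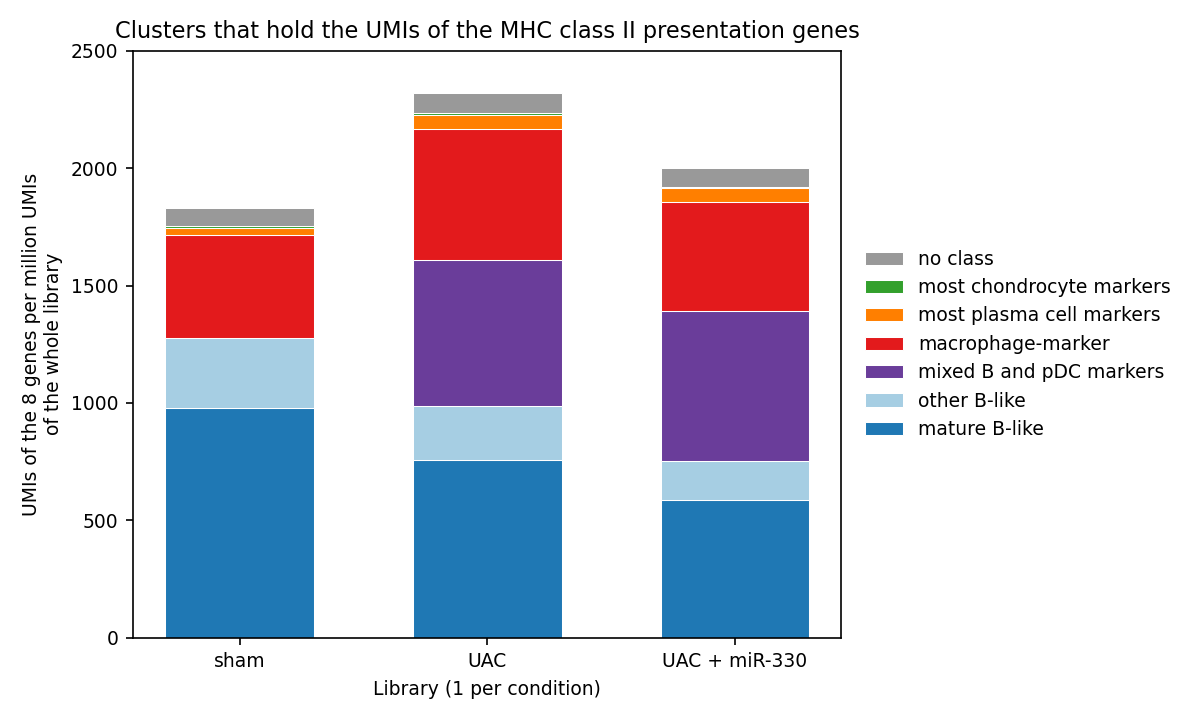
UMIs of the 8 genes per 1000000 UMIs of the whole library (vertical axis, from 0) in the 3 libraries, stacked by class of cluster; pDC stands for plasmacytoid dendritic cell. Bars reach 1832 CPM in sham, 2321 CPM in UAC and 2000.3 CPM in UAC + miR-330, and the mixed cluster, which sham lacks, adds 620.0 and 635 CPM to the UAC bars.

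The make-up of the members is given relative to Cd74, the most abundant of them. Per 100 UMIs of Cd74, the mature B-like cluster had 19.4 UMIs of RT1-Da in sham, 18.6 in UAC and 19.1 in UAC + miR-330. The macrophage-marker cluster had 40.3, 42.2 and 50.6, and the mixed cluster 45.6 in UAC and 44.04 in UAC + miR-330. By this ratio the mixed cluster lay near the macrophage-marker cluster and not near the mature B-like one. RT1-Ba gave the same grouping, with 9.91, 9.68 and 10.1 UMIs per 100 of Cd74 in the mature B-like cluster, 23.7, 25.4 and 30.8 in the macrophage-marker cluster, and 30.9 and 33.5 in the mixed cluster. Ciita per 100 UMIs of Cd74 in the mature B-like cluster went from 0.468 [0.410 to 0.531] in sham to 0.663 [0.591 to 0.741] in UAC and 1.23 [1.12 to 1.35] in UAC + miR-330. A ratio of this kind does not depend on how a library was scaled. The mixed cluster had 0.768 in UAC and 1.18 in UAC + miR-330, and the macrophage-marker cluster 0.307, 0.351 and 0.584.

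RT1-Db1 was above its partner chain in all of the other B-like clusters. There it had 120.0 UMIs per 100 of Cd74 in sham, 112 in UAC and 137 in UAC + miR-330, against 17.7, 18.8 and 21.1 in the mature B-like cluster. Per UMI of RT1-Da, the 23 other B-like clusters of the 3 libraries ran from 2.08 to 22.4 with a median of 11.95. The mature B-like clusters ran from 0.913 to 1.10, the macrophage-marker clusters from 0.627 to 0.686, and the mixed clusters from 0.763 to 0.894. The plasma-cell-marker clusters ran from 1.25 to 1.496, the chondrocyte-marker clusters from 0.924 to 1.51 and the 15 clusters of no class from 0.921 to 6.35. The last range overlapped that of the other B-like clusters, with cluster 13 of sham at 5.19, clusters 11 and 17 of UAC at 6.35 and 2.46 and cluster 11 of UAC + miR-330 at 3.46, picked out after their values had been seen. Cluster 13 of sham and clusters 11 of the UAC libraries had 12, 11 and 12 of 22 listed B markers at the level of the B-like rule. They lost that name to markers of other lists, while cluster 17 of UAC had 1 of 22. Adding RT1-Db2 to RT1-Db1 was tried per UMI of Cd74 and not of RT1-Da, and gave a log2 ratio between other B-like and macrophage-marker clusters of 2.21 in sham, 2.19 in UAC and 2.09 in UAC + miR-330, against 2.13, 2.08 and 1.99 without it. The reason for the RT1-Db1 level there was not tested.

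**Figure D3:**
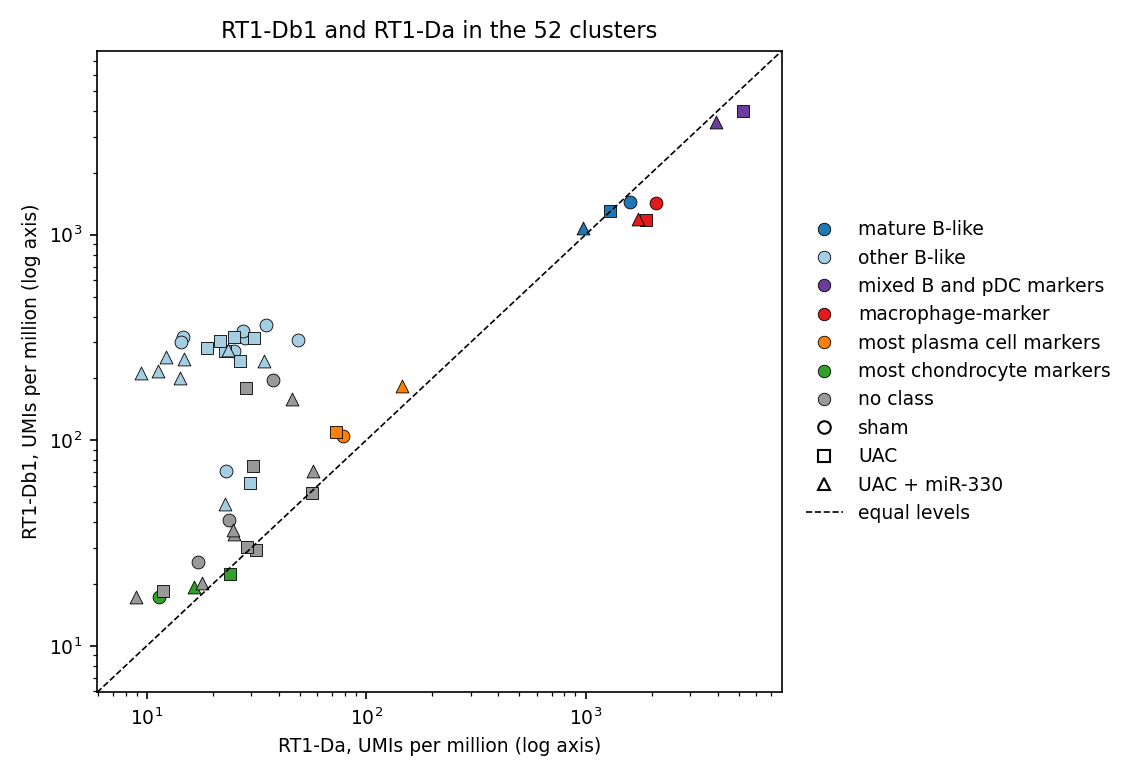
RT1-Db1 (vertical) against RT1-Da (horizontal) in the 52 clusters of the 3 libraries, both in CPM on log axes, with colour for the class of cluster, shape for the library and a dashed line where both levels are equal. The 23 other B-like clusters lie above the line, at 2.08 to 22.4 UMIs of RT1-Db1 per UMI of RT1-Da, mature B-like, macrophage-marker and mixed clusters lie along it at 0.627 to 1.10, and clusters of no class range from 0.921 to 6.35.

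Genes of the pathway were taken from 5 lists and are counted over all clusters, where 6.17% of all genes were higher and 5.39% lower in UAC than in sham, and 10.5% and 2.97% in UAC + miR-330 than in UAC. Of the regulators of MHC class II transcription, 13 of 15 passed the minimum, with 1 higher and 0 lower in UAC than in sham at a median log2 ratio of 0.02. The higher one was Irf8, an interferon regulatory factor of B and dendritic cells, at 24.6 CPM in sham, 37.0 CPM in UAC and 42.6 CPM in UAC + miR-330. Leaving mitochondrial, ribosomal, haemoglobin and immunoglobulin genes out of the scaling shifted every ratio of this comparison by −0.03. That took Irf8 below the fold. Irf8 was at 25.7 CPM in UAC without the mixed cluster, where its own level was 476 CPM, and 0 regulators were called then. In the macrophage-marker cluster Irf8 took another course, at 161 CPM in sham, 73.6 CPM in UAC and 133 CPM in UAC + miR-330, with a log2 ratio of −1.13 and then 0.86. Over all clusters, in UAC + miR-330 against UAC, 0 were higher and 1 was lower, Rfxap, a subunit of the RFX complex that binds the X box, at 1.87 CPM in sham, 1.88 CPM in UAC and 1.02 CPM in UAC + miR-330. The other named regulators were not called: Irf4 had 142, 158 and 194 CPM, Spi1 128, 145 and 131 CPM, Creb1 106, 114 and 168 CPM, and Rfxank 12.1, 10.0 and 9.44 CPM.

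Of the loading and lysosome genes 10 of 10 passed the minimum, with 2 higher and 0 lower in UAC than in sham, against 6.17% and 5.39% of all genes, at a median of 0.14 beside −0.02 for all genes. RT1-DOa, the alpha chain of the RT1-DO molecule that restrains RT1-DM, stood at 2.50 CPM in sham, 7.52 CPM in UAC and 5.90 CPM in UAC + miR-330. Its partner RT1-DOb stood at 3.86 CPM, 5.85 CPM and 8.02 CPM. Both were high in the mixed cluster, where RT1-DOa had 171 CPM in UAC and 108 CPM in UAC + miR-330 and RT1-DOb had 78.7 and 111 CPM, and neither was called without that cluster. RT1-DOb also fell below the fold with the gene groups named above left out of the scaling, a shift of −0.03. In UAC + miR-330 against UAC 0 of 10 were called, at a median of −0.25 against 0.13 for all genes. Ifi30, the thiol reductase that unfolds antigens, had 292 CPM in sham, 319 CPM in UAC and 251 CPM in UAC + miR-330. Ctsz, a cathepsin, had 269, 226 and 211 CPM, and Ctsh, another, 145, 167 and 147 CPM.

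The turnover list has 4 genes, all past the minimum, with 0 called in UAC against sham and 1 higher and 0 lower in UAC + miR-330 against UAC. March1 encodes a ubiquitin ligase that removes MHC class II from the surface. It stood at 30.4 CPM in sham, 45.6 CPM in UAC and 94.2 CPM in UAC + miR-330, and the last of these was higher than UAC at a log2 ratio of 1.05. Within the mature B-like cluster it had 83.7 CPM in sham, 147 CPM in UAC and 306 CPM in UAC + miR-330, and in the mixed cluster 278 CPM in UAC and 628 CPM in UAC + miR-330. In the macrophage-marker cluster it had 13.9, 33.9 and 48.8 CPM. March1 thus took the same order of libraries as Ciita in the mature B-like cluster and the opposite order to Cd74. Cd83, which opposes MARCH1, had 270.03 CPM, 362 CPM and 341 CPM over all clusters, the protease Sppl2a 52.6, 56.3 and 67.1 CPM, and March8 13.6, 11.2 and 16.0 CPM.

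Of the costimulators and partners 11 of 11 passed the minimum, and 9 were higher and 0 lower in UAC than in sham, against 6.17% and 5.39% of all genes, at a median of 1.30 beside −0.02 for all genes. The same number, 9, was called without the mixed cluster, at a median of 1.08. The 9 were Cd80, Icoslg, Cd274, Pdcd1lg2, Cd4, Lag3, Cd40lg, Ctla4 and Cd28, of which the last 5 are receptors or ligands known from T cells, and those given no value here were named after their values had been seen. Cd274, the ligand PD-L1, stood at 9.79 CPM in sham, 28.1 CPM in UAC and 24.8 CPM in UAC + miR-330. Pdcd1lg2, the ligand PD-L2, stood at 0.515, 4.97 and 3.23 CPM. Cd4 stood at 1.84, 3.56 and 5.05 CPM, and Lag3, an inhibitory receptor that binds MHC class II, at 0.721, 2.89 and 1.66 CPM. Cd86 at 7.09, 9.74 and 9.76 CPM and Cd40 at 85.6, 89.1 and 82.6 CPM were not called. The 11 listed T and NK markers summed to 117 CPM in sham, 177 CPM in UAC and 156 CPM in UAC + miR-330, led by Nkg7 at 35.7, 55.2 and 50.8 CPM, with none at 0. The UAC libraries each had a T and NK cluster, as said above, and sham had none, and the part of such cells in these counts was not tested. In UAC + miR-330 against UAC 0 were higher and 2 lower, Pdcd1lg2 and Lag3. Unscaled means raise these ratios by 0.24, and neither of the 2 passes the fold then.

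The MHC class I genes served for comparison, and 8 of 9 passed the minimum. In UAC against sham 0 were called, at a median of 0.24. In UAC + miR-330 against UAC 1 was higher, the immunoproteasome subunit Psmb8 at 2.83 CPM in sham, 3.59 CPM in UAC and 5.84 CPM in UAC + miR-330, and 0 were lower at a median of −0.16. B2m, the light chain of class I, stood at 1795 CPM, 2101 CPM and 1586 CPM. The UAC library had the highest value of B2m, as it had of Cd74. RT1-A2 at 199, 259 and 175 CPM and RT1-A1 at 115, 149 and 112 CPM, both class I heavy chains, were also highest in UAC, and Psmb9 had 124, 114 and 104 CPM.

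Within the carrier clusters the same lists gave other calls, and the genes called there are named after their values had been seen. In the macrophage-marker cluster Nfya and Irf8 were lower in UAC than in sham, as was the protease Lgmn, while March1 and RT1-A1 were higher, against 3.09% of genes higher and 6.5% lower. In UAC + miR-330 against UAC Irf8 and Cd4 were higher and Cd40, Cd274, RT1-A1 and RT1-A2 lower there, against 12.5% and 2.51%. In the mature B-like cluster March1 and Cd274 were higher in UAC than in sham, against 2.06% higher and 2.47% lower. March1 and Nfya were higher and Cd274 and RT1-A2 lower in UAC + miR-330 than in UAC, against 7.52% and 3.26%. In the mixed cluster 3 of 9 loading genes were lower in UAC + miR-330 than in UAC (RT1-DOa, Ctsl and Ctsz), at a median of −0.50 beside 0.10 for all genes, as was RT1-A2, while Rfx5 and March1 were higher, against 11.4% of genes higher and 5.98% lower. Unscaled means add 0.20 and 0.24 to these ratios, so calls close to the fold depend on the scaling.

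Among 10276 genes with at least 1000 UMIs, those whose level over the 52 clusters was most like that of the summed members were found by Pearson correlation of log2 CPM, as a description. The clusters share libraries and depth, and clusters of the same class recur in each library, so they are not independent points. The first 10 were Cd180 (r = 0.952), Ly86 (0.901), Irf5 (0.900), Cd86 (0.887), Ifi30 (0.884), Rnase6 (0.883), Il18 (0.864), Irf8 (0.855), Cd83 (0.855) and Pld4 (0.850). Cd180 and Ly86 encode partner proteins of a Toll-like receptor complex of B cells and myeloid cells. Their highest levels were in the mixed cluster of UAC + miR-330, at 24.6 CPM for Cd180 and 387 CPM for Ly86. Irf5 was highest in the sham macrophage-marker cluster, at 179 CPM, and Ifi30 in the sham mature B-like cluster, at 2087 CPM. Among the members themselves r with the sum, which contains them, was 0.984 for Cd74 and 0.892 for RT1-Bb.

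CIITA works through proteins that sit on conserved boxes shortly before MHC class II genes, so the promoters of the members are shown. RefSeq promoters of build GRCr8, from 250 bases before to 50 after the gene start, were given for 6 members, and for RT1-DMb and Ciita no entry was listed. The core of the X box, CTAGNAAC on either strand, occurred in 3 of the 6 (Cd74, RT1-Da and RT1-Db1) and in 3.59% of 33469 promoters. The Y box, GATTGG on either strand, occurred in 5 of the 6 (RT1-Da, RT1-Db1, RT1-Ba, RT1-Bb and RT1-DMa) and in 14.8% of promoters. Both occurred together in RT1-Da and RT1-Db1 and in 0.565% of promoters, with 27 and 26 bases between them. The motifs do not overlap, and a match is a description of letters. Stretches of 44 bases around the matches lie at chr18:56526987-56527030 on the plus strand for Cd74, chr20:4515327-4515370 on the plus strand for RT1-Da, chr20:4560238-4560281 on the minus strand for RT1-Db1, chr20:4576975-4577018 on the plus strand for RT1-Ba, chr20:4604175-4604218 on the minus strand for RT1-Bb, and chr20:4712395-4712438 on the minus strand for RT1-DMa. They are given from 5′ to 3′ on the strand of the gene, with the motifs in capitals:
Cd74: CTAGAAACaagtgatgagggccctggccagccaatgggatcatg
RT1-Da: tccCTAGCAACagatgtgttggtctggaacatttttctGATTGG
RT1-Db1: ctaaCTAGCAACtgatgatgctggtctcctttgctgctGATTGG
RT1-Ba: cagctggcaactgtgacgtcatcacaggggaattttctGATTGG
RT1-Bb: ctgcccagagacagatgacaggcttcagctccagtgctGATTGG
RT1-DMa: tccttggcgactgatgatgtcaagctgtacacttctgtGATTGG
The RT1-D, RT1-B and RT1-DMa stretches share the Y box at their end.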

How the data were processed

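Per the labels, 3 single-cell libraries were made from pooled condyles, and the submitters' processing notes name Cell Ranger 7.0, STAR and Seurat 4.0.1. The notes name builds GRCh38 and mm10, and the rat build was not given in the sources used here, while the gene identifiers are those of rat Ensembl. The deposited signal is the mean count of each gene in each cluster of a library, scaled by the authors so that every cluster of a library has the same total (4541 in sham, 5200.0 in UAC and 6123.5 in UAC + miR-330). UMIs were recovered by dividing each deposited mean by the smallest positive mean of its column, which gave whole numbers for 100% of values, with a largest distance of 1.0e-07. The tables also hold log2 fold changes and p-values (adjusted p) of clusters against the rest of their library, deposited by the authors, which were not used. Identifiers sharing a gene name had their UMIs added (101, 106 and 116 names in the 3 tables).

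Members and lists were chosen with earlier results of these data known. The rule that names clusters was set with the tables in view. B-like clusters had at least 10 B markers at 50 CPM or more and at least 4 times the mean of the 3 lowest clusters. A cluster lost that name where another list, the cycling one aside, had at least 3 markers enriched and no fewer than the B lists. Clusters with more cycling than B markers enriched thus stayed B-like. They were cluster 3 of sham (8 against 0) and cluster 5 of UAC (8 against 2). In UAC + miR-330 they were cluster 12 (6 against 1) and cluster 16 (7 against 0). A B-like cluster counted as mature when it also had more Ms4a1 than its library. A cluster with at least 3 B markers and 3 plasmacytoid dendritic markers enriched was set apart first as mixed, and the macrophage-marker, chondrocyte-marker and plasma-cell-marker clusters were the remaining ones with the most such markers enriched. A marker was enriched at a log2 ratio of at least 1 over the rest of the library, with at least 10 UMIs. These names may differ from those of the authors' clusters. Ratios carry exact conditional binomial intervals. The genes named were all members, the 3 of each list with the most UMIs, those with the largest rise and fall, and the first 10 by correlation; other called genes were named after their values had been seen. Scripts ran in Python 3.11.15 with pandas 2.3.3, numpy 2.4.6, SciPy 1.17.1 and matplotlib 3.10.9, and were tested on simulated data. Doublets were not treated, free RNA was not subtracted, and the tables hold no cell barcodes, so barcodes shared between libraries could not be counted. Alternatives changed the fold, the minimum count, the scaling, the clusters summed and the reference gene.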

Additional observations from a re-analysis of the deposited data

How the results depend on the processing

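Of 128 alternative values for 43 results, 78 counted as the same (a count within 1.5-fold, or a value within its interval), 44 moved and 6 reversed. Alternatives with or without the mixed cluster, and the one with RT1-Db2, were chosen after seeing the data. Unscaled means raise every gene by the same log2 amount, 0.20 for UAC against sham and 0.24 for UAC + miR-330 against UAC, which is how they act on the values; for the other changes the cause was not tested. A minimum of 20 UMIs changed no count of calls over all clusters, in B-like clusters together, or in the macrophage-marker cluster with or without the mixed one. It was not run in the other B-like clusters, where Ciita, with 58, 33 and 60 UMIs, had log2 ratios of −0.79 and 0.75 and missed only the minimum of 100. Among those counted as the same, the 3 members higher in UAC than in sham over all clusters were 4 on unscaled means and 2 without mitochondrial, ribosomal, haemoglobin and immunoglobulin genes.

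At 2-fold, 0 members were higher in UAC than in sham over all clusters, in place of 3. On unscaled means the log2 ratio of the summed members in UAC against sham was 0.54 over all clusters, 0.0883 in B-like clusters (reversed from −0.11), −0.0021 in the macrophage-marker cluster and 0.59 in the macrophage-marker and mixed clusters joined, where 4 members were higher in place of 1. In UAC + miR-330 against UAC it was 0.0214 over all clusters (reversed from −0.21), −0.20 in B-like clusters, 0.0176 in the macrophage-marker cluster (reversed from −0.22) and 0.0603 in the macrophage-marker and mixed clusters joined (reversed from −0.18), each with 1 member higher in place of 0. Without mitochondrial, ribosomal, haemoglobin and immunoglobulin genes, UAC against sham gave 0.31 over all clusters and −0.14 in B-like clusters. UAC + miR-330 against UAC gave −0.24 over all clusters, −0.48 in B-like clusters, −0.25 in the macrophage-marker cluster and −0.21 in the macrophage-marker and mixed clusters joined.

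Without the mixed cluster, UAC against sham had 0 members higher in place of 3 and a ratio of −0.0705 (reversed from 0.34), and UAC + miR-330 against UAC had −0.31. With it, the B-like clusters had 4 members higher in place of 0 and a ratio of 0.52 (reversed from −0.11) in UAC against sham, and −0.27 in UAC + miR-330 against UAC. The mature B-like cluster alone gave −0.23 and −0.42. Without Cd74 the shares were 64.7% B-like and 28.2% macrophage-marker in sham. In UAC they were 36.1% B-like, 31.6% mixed and 26.3% macrophage-marker, and in UAC + miR-330 31.3%, 35.7% and 26.1%. The mature B-like cluster then ranked 2 in sham and 3 in UAC and in UAC + miR-330, and the macrophage-marker cluster ranked 1 in sham and 2 in the others. Naming clusters by mean marker level gave B-like shares of 64.4% in sham and 37.5% in UAC + miR-330. RT1-Db1 per RT1-Da in place of Cd74, in other B-like over macrophage-marker clusters, had log2 ratios of 4.02, 4.09 and 4.28, and RT1-Db1 with RT1-Db2 had 2.21, 2.19 and 2.09.

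No paired analysis was possible because each condition had 1 library of pooled rats. Rats within a pool could not be told apart, so no spread between rats entered any interval. RT1-DMa and RT1-DMb had at most 7 UMIs in a library, and the cause was not tested. Cluster means carry no spread between cells, and clusters were made separately in each library.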
